A study of Mus musculus with 2 samples.

Results

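The cells described here are Eomes Lmx1a unipolar brush cells (brush cells for short) of the newborn mouse cerebellum. They were chosen by the unique molecular identifiers (UMIs, counted RNA molecules) of 4 genes: a cell barcode was taken as a brush cell when it held 1 or more UMIs of Eomes, 1 or more of Lmx1a, none of Gad2 and at most 2 of Slc1a3. Barcodes were retained with 500 or more genes detected and no more than 10% of their UMIs from mitochondrial genes. This rule chose 771 of 16547 retained barcodes over both libraries, 467 of 8194 in the Cxcr4+/1013 library and 304 of 8353 in the Cxcr4+/+ library. The choice rests on measured UMIs, so the levels of these 4 genes are given only as a description.

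The study profiled lobules III-IV of the cerebellum at postnatal day 1 by droplet single-cell RNA sequencing, with 1 library from mice heterozygous for the 1013 allele of Cxcr4 (Cxcr4+/1013) and 1 from control littermates (Cxcr4+/+). Both carry the strain label B6.129S2-Cxcr4tm1.1Bala and were dissociated with papain, and no sort is named. The number, sex and pooling of animals are not given in the sources used here, and the protocol wording calls the mutants Cxcr4+/- where the genotype label reads Cxcr4+/1013. The allele, which encodes a CXCR4 receptor with a shortened C-terminal tail, is present throughout the animal, and the deposited counts do not tell the alleles apart. As each genotype has 1 library, no replicates exist and no test was possible, and every interval given is a 95% interval for counting error only.

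Unipolar brush cells are excitatory interneurons that arise from the rhombic lip, as granule cells do, and settle in the granular layer, where a single brush-like dendrite receives a mossy fibre. The T-box factor Eomes (Tbr2) and the LIM homeobox factor Lmx1a mark them from early on. In the mature cerebellum they fall into ON and OFF types, which answer glutamate in opposite ways, and the OFF type carries calretinin (Calb2).

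Promoters of the genes that marked the brush cells are shown because Eomes, the factor used to choose the cells, binds T-box motifs. Windows of 300 bases around the start sites (250 before, 50 after) were available from RefSeq on GRCm38.p6 for 17 of the 25 leading genes listed below, 28 windows in all. The T-box motif AGGTGTGA (or TCACACCT on the other strand) was in 2 of these 28 windows, against 1.28% of 32851 windows genome-wide. They belong to Samd3 (chr10:26229457-26229756, plus strand), which encodes a sterile alpha motif protein, and to the first of 3 windows of the prolactin receptor gene Prlr (chr15:10176988-10177287, plus strand). The motif is in capitals and starts 15 bases before the Samd3 start site and 34 bases before that of Prlr.
Samd3: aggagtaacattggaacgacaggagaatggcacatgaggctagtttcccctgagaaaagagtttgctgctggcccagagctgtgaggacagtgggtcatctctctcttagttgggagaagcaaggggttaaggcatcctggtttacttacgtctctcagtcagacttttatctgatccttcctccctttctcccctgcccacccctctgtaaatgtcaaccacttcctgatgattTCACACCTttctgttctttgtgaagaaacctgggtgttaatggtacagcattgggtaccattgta
Prlr: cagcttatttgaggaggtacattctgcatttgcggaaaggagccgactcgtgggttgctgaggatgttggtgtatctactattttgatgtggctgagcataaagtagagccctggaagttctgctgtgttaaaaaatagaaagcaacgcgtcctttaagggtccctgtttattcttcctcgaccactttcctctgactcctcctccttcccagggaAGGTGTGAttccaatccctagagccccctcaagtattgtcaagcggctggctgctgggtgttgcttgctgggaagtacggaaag
The LIM homeobox core TAATTA was in 0 of the 28 windows (5.29% genome-wide). The OTX core TAATCC was in 1 of them (7.06% genome-wide), in Chn2. The E-box CAGATG was in 8 of them (17.2% genome-wide), in Cbln4, Chn2, Gmnc, Prlr, Rph3a and Vwc2l. Each motif was searched on both strands and no matches in the 28 windows overlap. A match is a description of the letters and not a binding site.

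The libraries held 9551 barcodes with 130429500 UMIs (Cxcr4+/1013) and 9586 barcodes with 120003656 UMIs (Cxcr4+/+). The brush cells had a median of 10842 UMIs per cell in the Cxcr4+/1013 library, with a range of 1505 to 39205, and of 10324.5 in the Cxcr4+/+ library, with a range of 672 to 55201. Of the barcode sequences, 25 occurred in both libraries, but none of them was a brush cell in both. Levels are given as CPM, the UMIs of a gene summed over a set of cells and scaled to 1000000 UMIs of that set. Markers of choroid plexus, endothelium, ependyma, fibroblasts and the oligodendrocyte lineage summed to at most 18.3 CPM in the brush cells of either library. That highest sum was of choroid plexus markers, at 18.3 CPM in Cxcr4+/1013 brush cells and 15.4 CPM in Cxcr4+/+ brush cells, against 5.54 and 5.73 CPM in other cells, with Ttr at 0 UMIs in the brush cells of both. Haemoglobin UMIs summed to 706 CPM in Cxcr4+/1013 brush cells and 21.1 CPM in Cxcr4+/+ brush cells, and 1 cell held 96.7% of the Hbb-bs UMIs of the Cxcr4+/1013 brush cells. Mural markers summed to 18.8 CPM in Cxcr4+/1013 brush cells and 0.85 CPM in Cxcr4+/+ brush cells, where 1 Cxcr4+/1013 cell held 91.4% of the Rgs5 UMIs.

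The genes of the rule lie at chr9:118478212-118486132 (Eomes) and chr1:167689237-167848741 (Lmx1a), both on the plus strand of GRCm38. A brush cell held a median of 11 Eomes and 4 Lmx1a UMIs in the Cxcr4+/1013 library, with at most 38 and 24, and of 9 Eomes and 3 Lmx1a UMIs in the Cxcr4+/+ library, with at most 33 and 18. Both markers of brush cells that the rule did not use were high in these cells. Samd3 was at 201 CPM in Cxcr4+/1013 brush cells and 194 CPM in Cxcr4+/+ brush cells, against 2.62 and 2.73 CPM in all other cells of the same libraries. Grp, which encodes gastrin-releasing peptide, was at 655 CPM in Cxcr4+/1013 brush cells and 641 CPM in Cxcr4+/+ brush cells, against 6.22 and 6.78 CPM in other cells. Samd3 was detected in 79.2% of Cxcr4+/1013 brush cells and 77.0% of Cxcr4+/+ brush cells, and Grp in 53.5% and 46.7%. In barcodes with at least 5 Gad2 UMIs, inhibitory cells that should lack these genes, Samd3 was detected in 1.19% (Cxcr4+/1013) and 2.41% (Cxcr4+/+), at median depths of 19577 and 19136 UMIs. In the same barcodes Eomes was detected in 5.11% (Cxcr4+/1013) and 7.14% (Cxcr4+/+), and Lmx1a in 1.74% and 3.82%. Both genes were held by 9 of 1095 and 24 of 995 of these barcodes. A count of 1 UMI of either gene has to be read against these rates. Calb2, a leading gene below, was detected in 47.3% and 48.0% of them. Midbrain dopaminergic and floor plate cells also use Lmx1a. Of their 5 markers, Foxa1, Foxa2 and Th were at 0 UMIs in the brush cells of both libraries. The 5 summed to 46.9 CPM in Cxcr4+/1013 brush cells and 36.4 CPM in Cxcr4+/+ brush cells, against 21.3 and 22.7 CPM in other cells. The sum in the brush cells thus came only from the markers not named here, and it was higher than in other cells in both libraries. Whether some of the brush cells were midbrain or floor plate cells was not tested. Purkinje cell markers summed to 234 CPM (Cxcr4+/1013) and 342 CPM (Cxcr4+/+), against 2552 and 2666 CPM in other cells. Astroglial markers summed to 115 CPM (Cxcr4+/1013) and 176 CPM (Cxcr4+/+), against 1425 and 2324 CPM in other cells. As a sum, granule neuron markers (Neurod1, Cntn2, Nhlh1, Rbfox3 and Nhlh2) were not lower in the brush cells. They summed to 790 CPM (Cxcr4+/1013) and 673 CPM (Cxcr4+/+), against 638 and 467 CPM in other cells. The sum does not stand for each of them, as Nhlh1 was at 4.17 and 3.98 CPM in the brush cells.

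Cells on the 2 sides of the limits of the rule differed in these markers. Cells just inside it, with exactly 1 Lmx1a UMI, numbered 75 in the Cxcr4+/1013 library and 61 in the Cxcr4+/+ library, and their Samd3 level was 179 and 175 CPM. Cells outside it with 1 Eomes UMI and no Lmx1a numbered 491 (Cxcr4+/1013) and 407 (Cxcr4+/+), and their Samd3 level was 1.69 and 0.83 CPM. These sets also differed in Eomes, at 1032 and 942 CPM inside and 75.6 and 84.3 CPM outside. They are thus not neighbours across the Lmx1a limit alone. Cells with 2 to 4 Eomes UMIs and no Lmx1a numbered 338 and 200, with Samd3 at 2.51 and 5.63 CPM. On the Eomes side, the 15 cells of each library with exactly 1 Eomes UMI inside the rule had Samd3 at 102 CPM (Cxcr4+/1013) and 67.1 CPM (Cxcr4+/+). The 23 and 49 cells outside it with Lmx1a but no Eomes had 46.2 and 30.4 CPM. A group of 98 Cxcr4+/1013 and 54 Cxcr4+/+ cells outside the rule had at least 5 Eomes UMIs but no Lmx1a. With Eomes at 633 and 796 CPM, they were nearer in Eomes to the cells with exactly 1 Lmx1a UMI. Their Samd3 level was 59.9 and 89.3 CPM. In the Cxcr4+/+ library this was above the level of the cells inside the rule with exactly 1 Eomes UMI. The Gad2 and Slc1a3 limits left out 59 Cxcr4+/1013 and 62 Cxcr4+/+ barcodes with both factors, and those had median depths of 24141 and 28202.5 UMIs, above the median of the brush cells.

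The brush cells made up a larger share of the Cxcr4+/1013 library. They were 5.70% of its retained barcodes (5.21 to 6.22), against 3.64% (3.25 to 4.06) in the Cxcr4+/+ library, a ratio of 1.57 (1.35 to 1.82). The ratio was 1.47 (1.27 to 1.71) among barcodes without markers of non-neural cells, 1.43 (1.15 to 1.78) among cells with female transcripts and 1.59 (1.27 to 2.01) among cells with male transcripts. Thinned to 4000 UMIs, which left out 960 Cxcr4+/1013 and 1760 Cxcr4+/+ barcodes with fewer, the shares were 4.72% of 7234 and 3.27% of 6593 barcodes. These intervals do not cover the difference between dissections or animals, which 1 library per genotype cannot show.

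For comparison, 3 other classes of neurons and progenitors were counted, each without Eomes, Lmx1a and Gad2 and with at most 2 Slc1a3 UMIs. Neurons with at least 2 UMIs of Cntn2, at least 1 of Neurod1 and no Atoh1, genes of early granule neurons, were 382 cells in the Cxcr4+/1013 library and 242 in the Cxcr4+/+ library, a ratio of shares of 1.61 (1.37 to 1.90). As a part of brush cells and these granule neurons together, the brush cells were 55.0% (Cxcr4+/1013) and 55.7% (Cxcr4+/+), a difference of -0.67 percentage points (-5.98 to 4.67). Progenitors with at least 2 UMIs of Atoh1 were 297 and 238 cells, a ratio of 1.27 (1.07 to 1.52). Neurons with Lhx9, Meis2 and Slc17a6, genes of glutamatergic nuclear neurons and of midbrain neurons, were 245 and 237 cells, a ratio of 1.05 (0.88 to 1.27). They also held Tcf7l2 at 1701 and 1727 CPM and Tfap2d at 581 and 406 CPM, genes used in the midbrain, so their origin in the rhombic lip is not shown. Early granule neurons thus had a ratio close to that of the brush cells, and the difference between those ratios was not resolved.

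**Figure D1:**
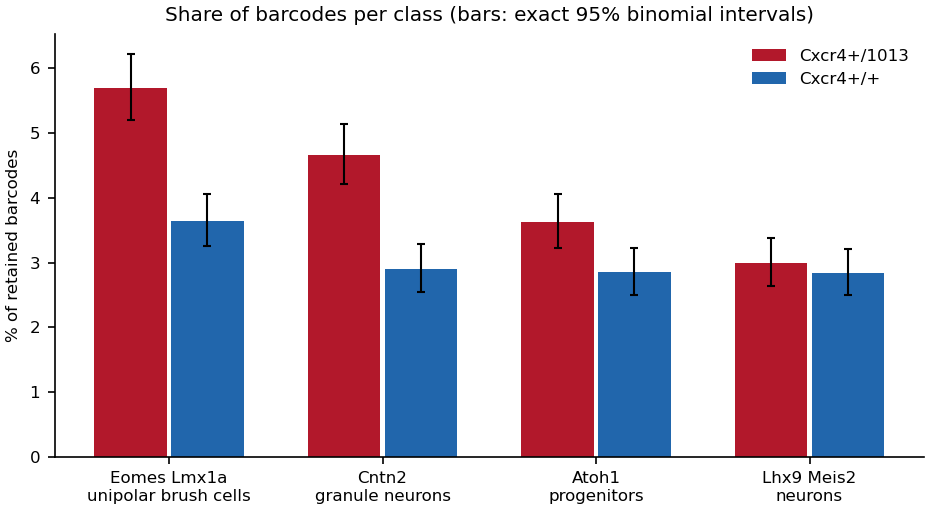
Shares of retained barcodes (vertical axis, percent) for the brush cells and 3 other classes, in the Cxcr4+/1013 library (red) and the Cxcr4+/+ library (blue), with exact binomial 95% intervals. The brush cells (5.70% against 3.64%) and the Cntn2 granule neurons differ most between the libraries, and the intervals of the Lhx9 Meis2 neurons overlap.

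Against all other cells, 189 of 17456 measured genes (1.08%) were higher in the brush cells by 4-fold or more in both libraries, and 1288 (7.38%) were lower by 4-fold or more. The 25 leading genes were ranked by the lower bound of the ratio in the library where it was smaller. After Grp and Samd3 came Calb2, the calcium-binding protein calretinin, with 2251 CPM in Cxcr4+/1013 brush cells and 2443 CPM in Cxcr4+/+ brush cells, against 62.9 and 70.5 CPM in other cells. Secreted factors were among them. Rspo2, an enhancer of Wnt signalling, was at 120 CPM in Cxcr4+/1013 brush cells and 107 CPM in Cxcr4+/+ brush cells, against 4.64 and 4.67 CPM in other cells. Tac2, which encodes neurokinin B, was at 44.4 and 58.3 CPM in the brush cells, against 2.16 and 2.27 CPM. The Wnt ligand gene Wnt10a was low, at 11.05 CPM (Cxcr4+/1013) and 11.4 CPM (Cxcr4+/+), against 0.35 and 0.48 CPM. Cbln4, a secreted synapse organiser of the cerebellin family, was at 84.9 and 91.3 CPM, against 5.79 and 5.47 CPM.

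Receptors and signalling genes formed another group of the leading genes. The cation channel gene Trpc5 was at 280 CPM in Cxcr4+/1013 brush cells and 258 CPM in Cxcr4+/+ brush cells, against 16.1 and 16.6 CPM in other cells, and was 17.4-fold (16.3 to 18.6) and 15.5-fold (14.3 to 16.8) higher. The prolactin receptor gene Prlr, whose promoter is printed above, was at 74.6 CPM in Cxcr4+/1013 brush cells and 80.0 CPM in Cxcr4+/+ brush cells, against 4.49 and 4.98 CPM in other cells. Ramp3, which sets the ligand choice of calcitonin-family receptors, and Adcy2, an adenylyl cyclase, were both over 15-fold higher in each library. Others were Vwc2l, the kinase gene Dclk3, Rph3a of the synaptic vesicle, Gmnc, Sln, the dynein chain gene Dync1i1, Hs3st4, which sulphates heparan sulphate, Zfp804b, Pkib, Chn2, Rtl4, Frmd4b and Mab21l2. Standing above other cells in both libraries is what chose these genes.

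**Figure D2:**
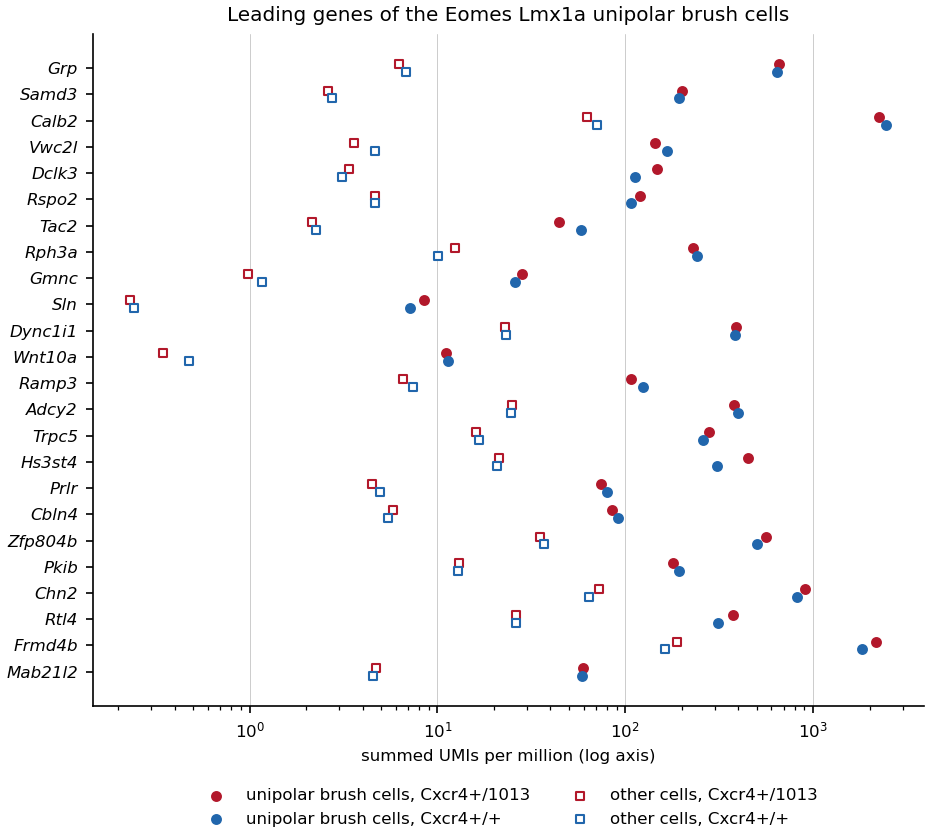
Levels (horizontal axis, summed UMIs as CPM, log scale) of 24 of the leading genes in brush cells (filled circles) and in all other cells (open squares) of the Cxcr4+/1013 library (red) and the Cxcr4+/+ library (blue). For each gene both circles lie right of both squares, and the circles of the libraries are farthest apart for Hs3st4, Dclk3 and Tac2, with the Cxcr4+/1013 circle further right for Hs3st4 and Dclk3 and further left for Tac2.

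Of 13 genes listed as genes of these cells, 7 were at least 4-fold higher than in other cells in both libraries. The shares of all measured genes past 4-fold were 1.08% upward and 7.38% downward. Among the 7 were Samd3, Grp, Calb2, Otx2 and Ntf3, which encodes neurotrophin-3. Grm8, a metabotropic receptor that lowers transmitter release, was at 791 CPM in Cxcr4+/1013 brush cells and 767 CPM in Cxcr4+/+ brush cells, against 107 and 96.6 CPM in other cells. The homeobox factor Otx2 was at 118 and 114 CPM, against 10.5 and 13.4 CPM. Among 30 measured rhombic lip and granule lineage factors only Neurod6 and Uncx were at least 4-fold higher, while Atoh1, Wls, Sox2 and Insm1 were at least 4-fold lower. Pax6, a factor of the whole rhombic lip lineage, was near the level of other cells, at 158 CPM in Cxcr4+/1013 brush cells and 138 CPM in Cxcr4+/+ brush cells, against 164 and 126 CPM.

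Adhesion, guidance and synapse genes were read against the shares of all genes past 4-fold, 1.08% upward and 7.38% downward. Unc5d, a netrin receptor gene, was at 1394 CPM in Cxcr4+/1013 brush cells and 1323 CPM in Cxcr4+/+ brush cells, against 159 and 167 CPM in other cells, and was the 1 gene at least 4-fold higher among 54 of guidance and migration, where 6 were lower. Of 42 adhesion genes 3 were higher, the cadherin Cdh12, the contactin Cntn3 and Cntnap4, and 4 were lower. Cdh12 was at 709 and 671 CPM, against 66.6 and 68.2 CPM. Of 39 synapse genes 4 were higher, Nlgn1, Lrrtm4, Cbln1 and Cbln4, and C1ql1 was lower. The postsynaptic adhesion gene Lrrtm4 was at 2503 CPM (Cxcr4+/1013) and 2458 CPM (Cxcr4+/+), against 319 and 323 CPM, and Cbln1, which in mature granule cells bridges their synapses onto Purkinje cells, was at 371 and 337 CPM, against 59.6 and 48.2 CPM. Among 32 ion channel genes Trpm3 and the T-type calcium channel gene Cacna1i were higher and none was lower. Among 17 neuropeptide and granule genes Grp, Adcyap1, which encodes PACAP, and Chgb were higher, and Sst, Npy, Cck and Nxph4 were lower.

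The genes lowest against other cells marked other lineages. Sst, which encodes somatostatin, was at 6.34 CPM in Cxcr4+/1013 brush cells and 7.97 CPM in Cxcr4+/+ brush cells, against 166 and 170 CPM in other cells. Calb1, the calbindin of Purkinje cells, was at 20.3 and 38.4 CPM, against 563 and 603 CPM. Rfx4 and Sox6, factors of neural progenitors and glia, Cdh9, Car8 and Pcp2 were also among the 25 genes lowest in the brush cells.

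The brush cells were also set against each of the 3 classes counted above. At least 2-fold higher than in Atoh1 progenitors were 16.7% of 10469 genes, and 17.0% were at least 2-fold lower. Against Cntn2 granule neurons 8.76% of 9906 genes were higher and 6.84% lower, and against Lhx9 Meis2 neurons 5.17% of 9895 genes were higher and 5.76% lower. The leading genes were chosen as high in brush cells, and several had almost no UMIs in these classes, so no count of them is given. Samd3 had 3 and 0 UMIs in the Atoh1 progenitors of the Cxcr4+/1013 and Cxcr4+/+ libraries, 1 and 0 in the Cntn2 granule neurons and 0 in the Lhx9 Meis2 neurons of both. Hs3st4, at 449 CPM in Cxcr4+/1013 brush cells and 309 CPM in Cxcr4+/+ brush cells, was at 194 and 198 CPM in the Lhx9 Meis2 neurons. The genes lowest against Atoh1 progenitors included Sfrp1, Top2a, Cdk1 and Birc5, and against Lhx9 Meis2 neurons Pou4f2, Zfhx3, Tcf7l2 and Lhx2.

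Among the 10 genes whose levels followed Eomes and Lmx1a most closely over all retained barcodes were Samd3, with a mean Pearson r of 0.66 (0.63 to 0.69 over both genes and both libraries), Dclk3 (0.59), Dync1i1 (0.55), Grp and Frmd4b (0.54 each), Rph3a and Chn2 (0.53 each), Calb2 (0.52) and Trpc5 (0.49). Eomes and Lmx1a themselves had an r of 0.71 in the Cxcr4+/1013 library and 0.62 in the Cxcr4+/+ library. These are descriptions over 8194 and 8353 barcodes that share a library and differ in depth, and they contrast brush cells with all other cells. Within the brush cells alone, the r of Eomes with Lmx1a was -0.006 (Cxcr4+/1013) and 0.084 (Cxcr4+/+). That of Samd3 was 0.06 and 0.02 with Lmx1a, and 0.20 and 0.16 with Eomes.

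Genes of dividing cells were detected in a minority of the brush cells. Mki67 or Top2a was detected in 48 of 467 Cxcr4+/1013 brush cells (10.3%) and 42 of 304 Cxcr4+/+ brush cells (13.8%), a difference of -3.54 percentage points (-8.51 to 1.08). Both were detected in 10 of 467 Cxcr4+/1013 brush cells (2.14%) and 8 of 304 Cxcr4+/+ brush cells (2.63%), a difference of -0.49 percentage points (-3.15 to 1.69). Of 52 listed G2/M genes, 38 were at least 4-fold lower than in other cells in both libraries, and of 42 S-phase genes 14 were. The share of all measured genes lower by as much was 7.38%. With cells thinned to 4000 UMIs, which left out 15 and 19 shallower brush cells, the shares with both genes were 1.13% and 1.07%. Atoh1, the factor of granule progenitors, was at 1.99 CPM in the brush cells of each library, against 20.1 CPM (Cxcr4+/1013) and 15.6 CPM (Cxcr4+/+) in other cells.

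Several genes of progenitor pathways were lower in the brush cells too. The shares of all measured genes past 4-fold were 7.38% downward and 1.08% upward. Of 18 measured genes of the Sonic hedgehog pathway, which drives division of granule progenitors, 8 were at least 4-fold lower in the brush cells, among them the targets Gli1 and Hhip. Of 19 Notch pathway genes 8 were lower, among them the effector genes Hes1 and Hes5. Of 18 measured BMP and Id genes 6 were at least 4-fold lower, the ligand genes Bmp6 and Bmp7 and Id1, Id2, Id3 and Id4, inhibitors of basic helix-loop-helix factors. The ligand gene Bmp4 was the 1 higher, at 25.9 CPM in Cxcr4+/1013 brush cells and 22.2 CPM in Cxcr4+/+ brush cells, against 2.24 and 2.27 CPM in other cells. Cxcr4, the mutated gene, was itself sparse in them, with 15 UMIs in Cxcr4+/1013 brush cells (2.72 CPM) and 10 UMIs in Cxcr4+/+ brush cells (2.85 CPM), against 25.1 and 27.9 CPM in other cells. It was detected in 2.36% and 3.29% of the brush cells.

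Within the brush cells, Calb2 and Grp split the cells into opposite poles. This split was chosen after the data were seen. A Grp pole (at least 2 Grp UMIs and at most 9 of Calb2) held 159 Cxcr4+/1013 brush cells (34.0%) and 89 Cxcr4+/+ brush cells (29.3%). A Calb2 pole (at least 10 Calb2 UMIs and no Grp) held 188 (40.3%) and 126 (41.4%). Only 60 (12.8%) and 42 (13.8%) had at least 10 Calb2 and 2 Grp UMIs, and the other 60 and 47 fell into none of these sets. The Grp share differed between the libraries by 4.77 percentage points (-2.00 to 11.3) and the Calb2 share by -1.19 points (-8.29 to 5.84), both intervals including 0. The median depth was 9854 UMIs in the Cxcr4+/1013 Grp pole and 9257 in the Cxcr4+/+ Grp pole, against 11967.5 and 11738.5 in the Calb2 poles.

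**Figure D3:**
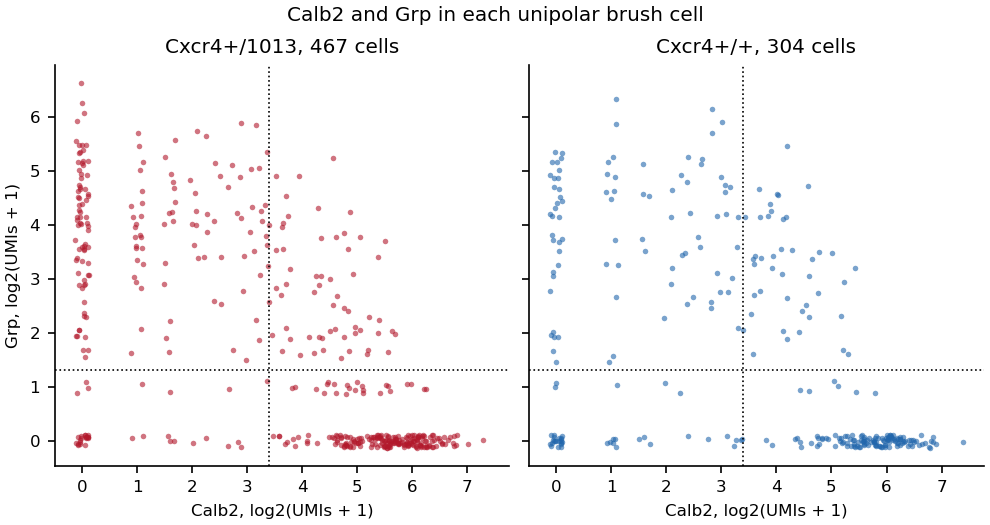
Calb2 (horizontal axis) and Grp (vertical axis), both as log2(UMIs + 1) with a small random offset for display, in each Cxcr4+/1013 brush cell (left, red) and each Cxcr4+/+ brush cell (right, blue). Dotted lines mark the limits of 10 Calb2 and 2 Grp UMIs, and in both libraries most cells lie along the axes, with few cells high for both genes.

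Other genes followed the same split. Of 7052 genes measured in both poles, 128 (1.82%) were higher in the Grp pole by 2-fold or more in both libraries and 200 (2.84%) lower by as much. Brinp2, which encodes a neural inhibitor of the cell cycle, differed most upward, with 334 CPM in the Cxcr4+/1013 Grp pole, against 10.0 CPM in the Calb2 pole of that library, and with 269 against 7.92 CPM in the Cxcr4+/+ library. Other genes of this pole were Dact1, a modulator of Wnt signalling, Ptpre, the membrane-anchored netrin Ntng1, Tac2, Otx2os1 next to Otx2, Rgs6, Lrrn3, the guidance factor Sema3d, Bmp4 and Sec11c. Otx2 and Nfix lay on the same side: Otx2 was 5.75-fold higher in the Grp pole of the Cxcr4+/1013 library and 5.85-fold in that of the Cxcr4+/+ library, and Nfix 4.93-fold and 6.77-fold.

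The Calb2 pole had its own signalling genes. Plcb1, a phospholipase C, was at 82.4 CPM in the Grp pole against 848 CPM in the Calb2 pole of the Cxcr4+/1013 library, and at 83.4 against 768 CPM in the Cxcr4+/+ library. The adhesion gene Cntnap5a was at 13.5 against 518 CPM (Cxcr4+/1013) and 14.4 against 470 CPM (Cxcr4+/+). Fst, which encodes the activin and BMP antagonist follistatin, was at 0 UMIs in both Grp poles, against 58 and 62 UMIs in the Calb2 poles. The others were the noncoding RNA Snhg11, most of whose UMIs lay in 23 Cxcr4+/1013 and 24 Cxcr4+/+ brush cells, the potassium channel partner Kcnip1, the sarcoglycans Sgcz and Sgcd, Samd5, the cadherin Cdh4, the sorting receptor Sorcs1, secretogranin Scg2 and the teneurin Tenm3. Bmp4 on one side and Fst on the other thus marked opposite poles.

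Samd3 and Lmx1a differed little along this split. Samd3 was at 235 CPM in the Grp pole against 192 CPM in the Calb2 pole (Cxcr4+/1013) and at 234 against 196 CPM (Cxcr4+/+), and Lmx1a was at 367 against 398 CPM and 340 against 391 CPM. Eomes was 1.68-fold and 1.74-fold higher in the Grp pole. Over the 467 Cxcr4+/1013 and 304 Cxcr4+/+ brush cells, the Pearson r of Calb2 with Plcb1 was 0.65 and 0.61, that of Grp with Nfix 0.63 and 0.62, that of Plcb1 with Grp -0.68 and -0.67, and that of Calb2 with Samd3 0.00 and 0.10. These are descriptions over cells of the same library, which share its depth and free RNA.

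**Figure D4:**
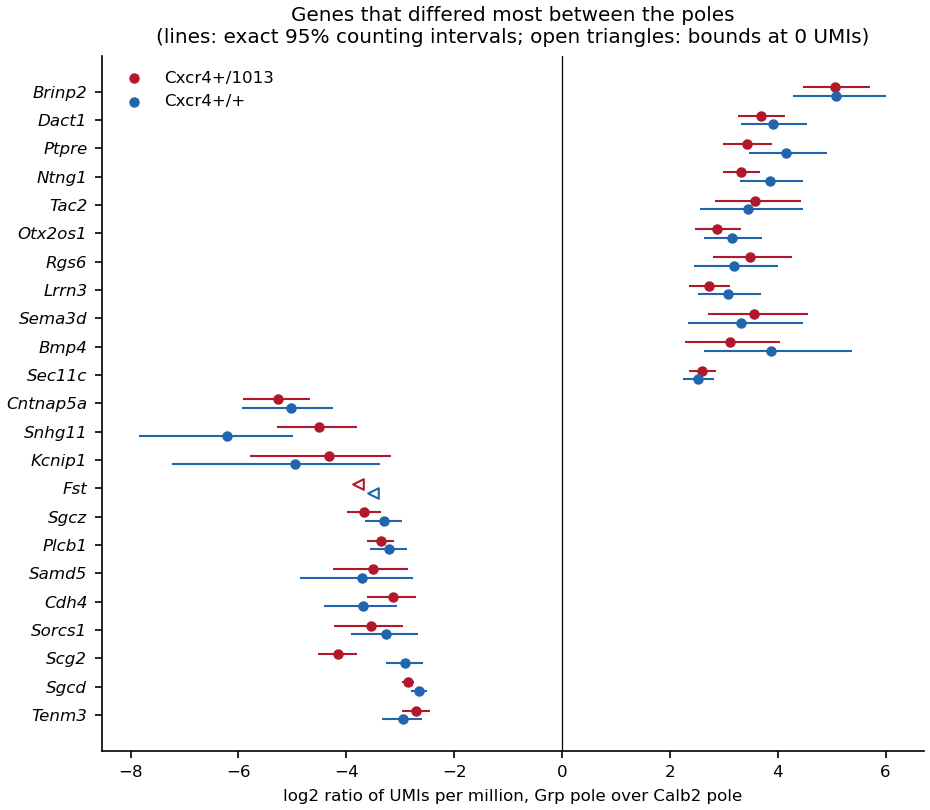
Ratio of levels in the Grp pole over the Calb2 pole (horizontal axis, log2 of the CPM ratio) for 23 of the genes that differed most, in the Cxcr4+/1013 library (red) and the Cxcr4+/+ library (blue), with exact 95% counting intervals. The upper 11 genes lie right of 0 and the lower 12 left of 0 in both libraries, and Fst, at 0 UMIs in both Grp poles, is drawn as a bound from a floor of 3 UMIs per library.

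The genotypes were then compared within the brush cells. In all, 10595 genes had 50 or more UMIs in the brush cells. A level 1.5-fold or more higher in Cxcr4+/1013 brush cells was seen for 318 of them (3.0%) and one 1.5-fold or more lower for 305 (2.88%), together 623 (5.88%), and the median log2 ratio of all genes was 0.00. The clearest difference upward was in Jund, which encodes an AP-1 transcription factor, with 354 CPM in Cxcr4+/1013 brush cells and 93.3 CPM in Cxcr4+/+ brush cells. Its log2 ratio was 1.92 (1.75 to 2.10) in the brush cells and 1.72 (1.69 to 1.75) in all other cells. Tmem158 was at 98.0 and 27.0 CPM, with a log2 ratio of 1.86 in the brush cells and 1.87 in other cells. The rest of the 12 genes named for a higher level were Prr7, Taf10 of the general transcription machinery, Yrdc, Nsmce4a, the death-associated kinase Dapk3, the small GTPase Arf6, Mlycd, the phosphatase Pdxp, the linker histone H1fx and the ubiquitin ligase Rnf11. All 12 were higher in the other cells too, with log2 ratios of 1.02 (Arf6) to 1.95 (Dapk3), and the circles and squares in the plot of named genes lie on the same side of 0.

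Apart from Snhg11, the 12 genes named for a lower level were at no more than 39.3 CPM in the brush cells of either library. The log2 ratios of the 12 in other cells lay nearer to 0, some of them above it. Id2 was at 13.8 CPM in Cxcr4+/1013 brush cells and 37.6 CPM in Cxcr4+/+ brush cells, a log2 ratio of -1.45 (-1.88 to -1.03), against -0.04 in other cells. The adhesion gene Alcam was at 13.6 and 36.7 CPM (-1.43, against 0.06 in other cells), and the AMPA receptor gene Gria1 at 4.89 and 14.5 CPM (-1.57, against -0.39). Snhg11 was at 114 and 237 CPM (-1.05, against -0.27). Others, with the log2 ratio in other cells in brackets, were Lgals7 (-0.60), Col25a1 (-0.24) and the calsyntenin Clstn2 (0.25). Further ones were the zinc finger factor Bcl11a (0.18), the secreted Nxph1 (0.35), Vstm2l (0.04) and Caln1 (0.04).

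**Figure D5:**
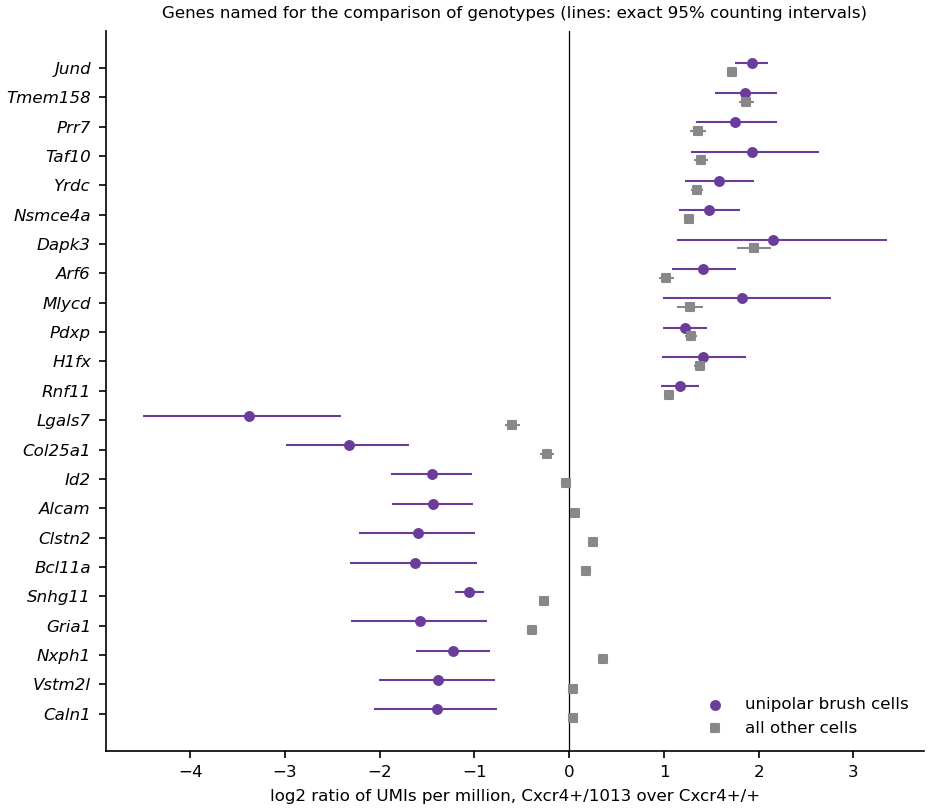
Ratio of Cxcr4+/1013 over Cxcr4+/+ levels (horizontal axis, log2 of the CPM ratio) for the 12 genes named as higher and 11 named as lower in brush cells (purple circles), beside the ratio in all other cells (grey squares), with exact 95% counting intervals. For the upper 12 genes the circle and the square both lie right of 0. For the lower 11 the square lies nearer to 0 than the circle, for some of them right of 0.

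Genes of glutamatergic nuclear neurons, some of them also genes of midbrain neurons, were lower as a sum in Cxcr4+/1013 brush cells. Tbr1, Lhx2, Lhx9, Meis2 and Slc17a6 summed to 136 CPM in Cxcr4+/1013 brush cells and 228 CPM in Cxcr4+/+ brush cells, against 143 and 141 CPM in other cells. Cells with at least 3 UMIs of the first 4 genes were 23 (4.93%) and 24 (7.89%) of the brush cells. The difference was -2.97 percentage points (-6.90 to 0.49), an interval including 0. These cells had median depths of 14491 and 20085.5 UMIs. They held Meis2, a gene used to choose them, at 999 and 810 CPM, and Samd3 at 125 and 112 CPM. They held 394 of the 631 Snhg11 UMIs of the Cxcr4+/1013 brush cells and 599 of the 833 of the Cxcr4+/+ brush cells, and the other brush cells had Snhg11 at 46.1 and 78.6 CPM. Without these cells, an alternative chosen after seeing the data, 227 genes were lower by 1.5-fold or more. The log2 ratio of Lgals7 was then -1.93 in place of -3.37, that of Col25a1 -1.45 in place of -2.32, that of Bcl11a -0.90 in place of -1.63, that of Alcam -0.94 in place of -1.43, that of Snhg11 -0.77 in place of -1.05 and that of Id2 -1.26 in place of -1.45. The interval of Clstn2 then included 0 (-0.67, -1.53 to 0.19). With only brush cells that held no Slc1a3 UMI, the log2 ratio was -0.71 for Id2, -0.83 for Alcam, -0.91 for Clstn2, -0.74 for Snhg11 and -0.71 for Nxph1. In the Grp pole the log2 ratio of Id2 was -0.42 (-1.38 to 0.57), that of Alcam 0.29 (-0.69 to 1.35) and that of Snhg11 0.85 (-0.65 to 2.64), and in the Calb2 pole they were -1.44 (-2.07 to -0.82), -2.32 (-3.19 to -1.51) and -0.86 (-1.03 to -0.70). Clstn2 had 13 UMIs in the Cxcr4+/1013 Grp pole and 0 in the Cxcr4+/+ Grp pole, and 11 and 46 UMIs in the Calb2 poles, so its direction differed between the poles. Vstm2l, with 4 and 2 UMIs in the Grp poles, was too sparse there to compare. The log2 ratio of Nxph1 was -1.86 (-2.58 to -1.18) in the Grp pole and -0.21 (-0.93 to 0.52) in the Calb2 pole. Among brush cells with female and with male transcripts the log2 ratio of Snhg11 differed in size, at -0.28 (-0.53 to -0.02) in female and -1.77 (-2.01 to -1.54) in male brush cells, and that of Id2 was -0.69 (-1.46 to 0.07) and -1.46 (-2.17 to -0.76).

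Of the 13 listed genes of these cells 11 were higher in Cxcr4+/1013 brush cells, 4 of them with an interval above 1, against 10.8% of all genes, and their median log2 ratio was 0.06. Among the 4 were Pax6 (0.19, 0.03 to 0.36, against 0.38 in other cells) and Ntf3 (0.44, 0.01 to 0.89, against 0.38). Hs3st4, a leading gene, was at 449 CPM in Cxcr4+/1013 brush cells and 309 CPM in Cxcr4+/+ brush cells, a log2 ratio of 0.54 (0.43 to 0.64), against 0.04 in other cells, and its log2 ratio was 0.46 in the Grp pole and 0.53 in the Calb2 pole. Without the cells holding nuclear neuron genes it was 0.41 (0.30 to 0.51). Calb2 (-0.12, -0.16 to -0.08) and Slc17a6 (-0.46, -0.73 to -0.20), the vesicular glutamate transporter, were lower, Slc17a6 being at 41.2 and 43.3 CPM without the cells just named, with 9.54% of all genes having an interval below 1. Of 18 genes of the metabotropic glutamate pathway 13 were higher, 6 with an interval above 1, and 5 lower, 3 with an interval below 1. Their median log2 ratio was 0.12, against 0.00 for all genes. Among the higher ones were the G protein gene Gna11 (0.76, against 0.79 in other cells) and Trpc1 (0.75, against 0.50). Itpr1 (-0.74, with 28.8% of its Cxcr4+/+ UMIs in 1 cell) and Grm7 (-0.85) were lower.

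The next lists are to be read against the 10.8% of all genes with an interval above 1 and the 9.54% with one below it. Of 24 measured rhombic lip and granule lineage factors 16 were higher (13 of these with intervals above 1). Their median was 0.12 on the log2 scale, against 0.28 in other cells. Neurod1 was at 597 CPM in Cxcr4+/1013 brush cells and 486 CPM in Cxcr4+/+ brush cells, and Zic2 was at 196 and 102 CPM, a log2 ratio of 0.95 against 1.01 in other cells. Of 77 ribosomal protein genes 65 were lower, 61 with an interval below 1, with a median log2 ratio of -0.20, against -0.22 in other cells. Rpl38 went the other way, at 822 CPM in Cxcr4+/1013 brush cells and 548 CPM in Cxcr4+/+ brush cells. The 14 measured genes of the CXCL12 axis had a median of 0.05 and 1 interval above 1, that of the GTPase gene Rac1 (0.45, 0.27 to 0.63, against 0.29 in other cells). Ntng1, a gene of the Grp pole, was at 155 CPM in Cxcr4+/1013 brush cells and 103 CPM in Cxcr4+/+ brush cells, a log2 ratio of 0.59 (0.41 to 0.77), against 0.14 in other cells. Among 45 guidance and migration genes 15 had an interval above 1 and 7 below it, and among 40 adhesion genes 12 and 10, with medians of 0.08 and 0.03. Among 36 synapse genes these were 11 and 2, among 29 ion channel genes 6 and 4, and among 14 ionotropic glutamate receptor genes 4 and 4.

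For the smaller lists, the number of genes measured is given with the numbers whose interval lay above 1 and below 1, to be read against 10.8% and 9.54% of all genes. S-phase genes (33 measured, 1 above and 3 below) had a median log2 ratio of -0.05, G2/M genes (32 measured, 8 and 1) 0.16, Sonic hedgehog genes (14, 1 and 0) 0.08, Notch genes (8, 3 and 1) 0.12, BMP and Id genes (14, 2 and 2) 0.12 and Wnt genes (12, 4 and 1) 0.16. Neuropeptide genes (10, 0 and 4) had a median of -0.33, transmitter genes (8, 0 and 2) -0.15, LIM homeobox genes (3, 0 and 2) -0.73 and immediate early and AP-1 genes (13, 2 and 1) -0.05. Without the cells holding nuclear neuron genes the medians of neuropeptide, transmitter and LIM homeobox genes were -0.03, -0.04 and -0.26, and without high doublet scores that of LIM homeobox genes was -2.10. The synapse organiser gene C1ql3 was at 5.07 CPM in Cxcr4+/1013 brush cells and 15.9 CPM in Cxcr4+/+ brush cells (-1.65), where 1 Cxcr4+/+ cell held 37.5% of its UMIs, and Nts, which encodes neurotensin, at 4.89 and 13.1 CPM (-1.42). Junb was at 17.9 and 30.7 CPM, a log2 ratio of -0.78, against -0.82 in other cells. Tbr1, the 1 T-box gene measured beside Eomes, had a log2 ratio whose interval included 0 (-0.65, -1.46 to 0.16) and was at 5.07 CPM in Cxcr4+/1013 brush cells and 7.97 CPM in Cxcr4+/+ brush cells. The 7 genes measured of a list taken from earlier results on these libraries were all higher, which is not independent evidence.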

How the data were processed

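Each deposited file holds raw UMI counts per gene and cell barcode, with the barcode and gene names beside them. The submitters' processing notes name bcl2fastq (version 2.20.0.4222), Cell Ranger (version 7.2) and the genome mm10. The annotation release and the use of intronic reads are not given in the sources used here.

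From the deposited counts, UMIs were summed over the brush cells or other cells of a library and divided by their total (CPM). Genes needed at least 50 UMIs over the sets compared. Ratios carry exact conditional binomial intervals, shares Clopper-Pearson intervals and differences of shares Newcombe intervals. Where a set had 0 UMIs, the ratio is a bound from 3 counts. Motifs were counted in RefSeq windows. Python 3.11.15, scipy 1.17.1 and scanpy 1.11.5 (Scrublet doublet scores) were used, and edgeR 4.0.16 (TMM) and DESeq2 1.42.0 (size factors) only for other scalings. The interval routine was tested only on simulated data with independent counts per gene. Such data leave out the clustering of UMIs in single cells.

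Named genes had the interval bound nearest 1 farthest from 1, 12 each way between genotypes, 25 against other cells and 10 each way against each class, without sex-linked, mitochondrial, ribosomal protein, haemoglobin and predicted genes and genes with over 25% of a library's UMIs in 1 cell. Likeness used the 10 highest mean correlations, and every gene of the lists could be named. The members and lists were chosen with earlier results of these data known. Sex was assigned per cell from Xist and Y-linked UMIs. Alternatives were doublet removal, stricter filters, sex, scaling, count minimum, fold and depth. A few named genes are not reported here.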

Additional observations from a re-analysis of the deposited data

How the results depend on the processing

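No paired analysis was possible because each genotype has 1 library. The share of unipolar brush cells, Cxcr4+/1013 over Cxcr4+/+, stayed between 1.43 and 1.75 under the 9 alternatives run. The number of genes at least 1.5-fold higher in Cxcr4+/1013 brush cells was 318, and the number lower 305. They were 1568 and 1601 with no minimum count, 108 and 39 with at least 200 UMIs, and 63 and 47 at 2-fold. At 2-fold in place of 4-fold, 686 genes were higher and 3062 lower in brush cells than in other cells. The log2 ratio of Bcl11a was 1.34 (-0.33 to 3.41) in female and -0.33 (-1.83 to 1.27) in male brush cells, against -1.63 in all brush cells. Those of Alcam were -0.83 and -1.25, against -1.43, and those of Gria1 -1.66 and -0.40, against -1.57. No sex was assigned to 51 Cxcr4+/1013 and 41 Cxcr4+/+ brush cells. Of the 24 genes named, 7 left the interval of all brush cells and 1 reversed in female brush cells, and 8 left it in male brush cells. The median log2 ratio of LIM homeobox genes was 1.32 in female brush cells and that of transmitter genes 0.059. In male brush cells the median of neuropeptide genes was 0.11, that of G2/M genes -0.020 and that of Notch genes -0.052, and without high doublet scores that of G2/M genes was -0.21. The cause of these changes was not tested. Doublet scores took 34 Cxcr4+/1013 and 15 Cxcr4+/+ brush cells (7.28% and 4.93%). TMM and DESeq2 scaling each shifted all log2 ratios by the same small amount, from 1.92 to 1.94 for Jund. No direction among the 24 genes named could change by such a shift. With 467 and 304 cells, a gene with few UMIs can be decided by 1 cell, and no interval here covers animals, dissection or preparation.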
